A study of Homo sapiens with 21 samples.

Results

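Matrix metalloproteinases (MMPs) and the tissue inhibitors of metalloproteinases (TIMPs) were followed through 7 parental and 10 resistant cancer cell lines. The 10 genes were MMP1, MMP2, MMP7, MMP9, MMP10, MMP14, MMP15, TIMP1, TIMP2 and TIMP3, of 53515 genes counted in 21 libraries of RNA sequencing, and each was found by the Ensembl identifier of its symbol. The parental lines were HepG2 (liver), PancVB (pancreas), HCC4006P1, HCC4006P2 and HCC827P (lung), and UWB1.289 and IGROV-1 (ovary). HCC4006P1 and HCC4006P2 carry the same cell line identifier in the study, so both are labelled as stocks of HCC4006. Sorafenib-resistant HepG2S1 and HepG2S3 came from HepG2, and 5-fluorouracil-resistant PancB1Q and PancB1V from PancVB, a stock of Panc 03.27. Erlotinib-resistant HCC4006ER came from HCC4006P1, gefitinib-resistant HCC4006GR from HCC4006P2 and gefitinib-resistant HCC827GR from HCC827P. Olaparib-resistant U10 and U100 came from UWB1.289, and cisplatin-resistant IGROV-1/CDDP from IGROV-1. All are established lines grown without an animal host, and each resistant line had been kept under its drug for a prolonged time before RNA was taken. Replicates, 2 libraries per line, existed for 4 lines (HCC4006ER, HCC4006P1, HepG2S3 and HepG2), and 13 lines had 1 library, so 8 of the 10 pairs contain a line without a replicate.

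MMPs are zinc-dependent enzymes that cut collagens, other matrix proteins and cell surface proteins, and most are made as inactive proforms. TIMPs bind the active site of MMPs and of some ADAM proteases. MMP14 and MMP15 are anchored in the cell membrane, MMP2 and MMP9 are gelatinases, MMP1 is an interstitial collagenase, MMP10 a stromelysin and MMP7 a small enzyme, matrilysin, made mostly by epithelial cells. TIMP2 has a second role, since a complex of MMP14 and TIMP2 at the cell surface captures the proform of MMP2 for its activation. MMP2 and MMP9 are also counted among mesenchymal genes when epithelial-mesenchymal transition is scored, as in the study that sequenced these lines.

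The libraries held 9851195 to 36639473 counts on genes, with medians of 19498932 in the 9 parental and 19617483 in the 12 resistant libraries. Values are CPM, a gene's counts scaled by the library's total on genes, and 3 counts, the smallest number taken as detected, stood for 0.0819 to 0.305 CPM. HCC4006P1 replicate 1 held no counts for a stretch of 8694 genes that begins at GARS1 on chromosome 7 and runs over the later chromosomes in alphabetical order. TIMP1, on chromosome X, lies in that stretch, so its level in HCC4006P1 was taken from replicate 2 only, and the CPM of the other 9 genes in replicate 1 stood about 22.1% too high. Markers of origin did not all match the labels. The 4 liver markers ALB, AFP, APOA1 and APOB summed to 29327 CPM in HepG2, but to 0.305 CPM in HepG2S1 and 26.3 CPM in HepG2S3. The lung markers NKX2-1 and NAPSA were at 113 and 143 CPM in HCC4006P2, but at 0.0802 and 0.106 CPM in HCC4006P1, and PDX1 and ONECUT1 were below 0.21 CPM in all 3 pancreatic lines. Counts over the pairs, values over the parental lines and correlations over the lines are therefore also given without the HepG2 and HCC4006P1 families. Of the 3 ovarian markers, PAX8 was at 357 to 664 CPM in the 5 ovarian lines, but WT1 was at most at 0.488 CPM in them and at 3.04 to 5.84 CPM in the pancreatic lines. MUC16 was at 30.1 to 103 CPM in UWB1.289, U10 and U100, but at 0.473 and 0.554 CPM in IGROV-1 and IGROV-1/CDDP and at 618 CPM in the lung line HCC827P.

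Promoter sequences of 6 of the 10 genes were found in the RefSeq table of GRCh38.p14 (MMP7, MMP10, MMP14, MMP15, TIMP1 and TIMP3). The 120 bases before the start of 4 of them are shown. MMP7 and MMP10, of the chromosome 11 cluster, hold the exact AP-1 letters TGANTCA, which the other 4 matched genes lack. MMP14 and TIMP3 hold GC boxes. Capitals mark the AP-1 site (letters TGANTCA) in the first pair and GC boxes (letters GGGCGG, or their reverse complement) in the second pair. The stretches are chr11:102530748-102530867 (minus strand) for MMP7, chr11:102780629-102780748 (minus strand) for MMP10, chr14:22836465-22836584 (plus strand) for MMP14 and chr22:32801585-32801704 (plus strand) for TIMP3.
MMP7: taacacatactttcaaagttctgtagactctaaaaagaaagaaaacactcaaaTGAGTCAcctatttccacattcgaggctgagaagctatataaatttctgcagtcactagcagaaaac
MMP10: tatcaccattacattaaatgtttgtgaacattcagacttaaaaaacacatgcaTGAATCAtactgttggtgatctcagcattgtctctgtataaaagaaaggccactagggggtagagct
MMP14: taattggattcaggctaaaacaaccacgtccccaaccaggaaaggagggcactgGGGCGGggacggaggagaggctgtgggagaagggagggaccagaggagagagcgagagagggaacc
TIMP3: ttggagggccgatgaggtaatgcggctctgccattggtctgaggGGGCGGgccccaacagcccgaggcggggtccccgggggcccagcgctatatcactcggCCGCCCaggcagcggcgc
In both MMP7 and MMP10 the AP-1 letters began 67 bases before the start. On both strands of windows of 300 bases, from 250 before to 50 after each start, the AP-1 letters occurred in 7.72% of 34943 windows and in 2 of the 6 matched genes. GC box letters occurred in 44.9% of windows and in MMP14, MMP15, TIMP1 and TIMP3. The PEA3 letters AGGAAG were in 33.7% of windows and in MMP7 and TIMP1, and the E-box letters CACCTG in 20.6% and in MMP15. Some windows of the table overlap each other, and a match is only a run of letters. Only these exact letters were searched, so near variants, such as TGAGTAA in TIMP1, were not counted.

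Some of the 10 genes were measured in every line and others in few. TIMP1, TIMP2 and MMP15 were above 1 CPM in all 17 lines, with medians of 59.7, 235 and 72.1 CPM. MMP1 and MMP10 were under 1 CPM in 13 of the 17 lines, and MMP9 in 11. MMP2 and MMP14 were each under 1 CPM in 6 lines and at or above 10 CPM in the other 11.

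**Figure D1:**
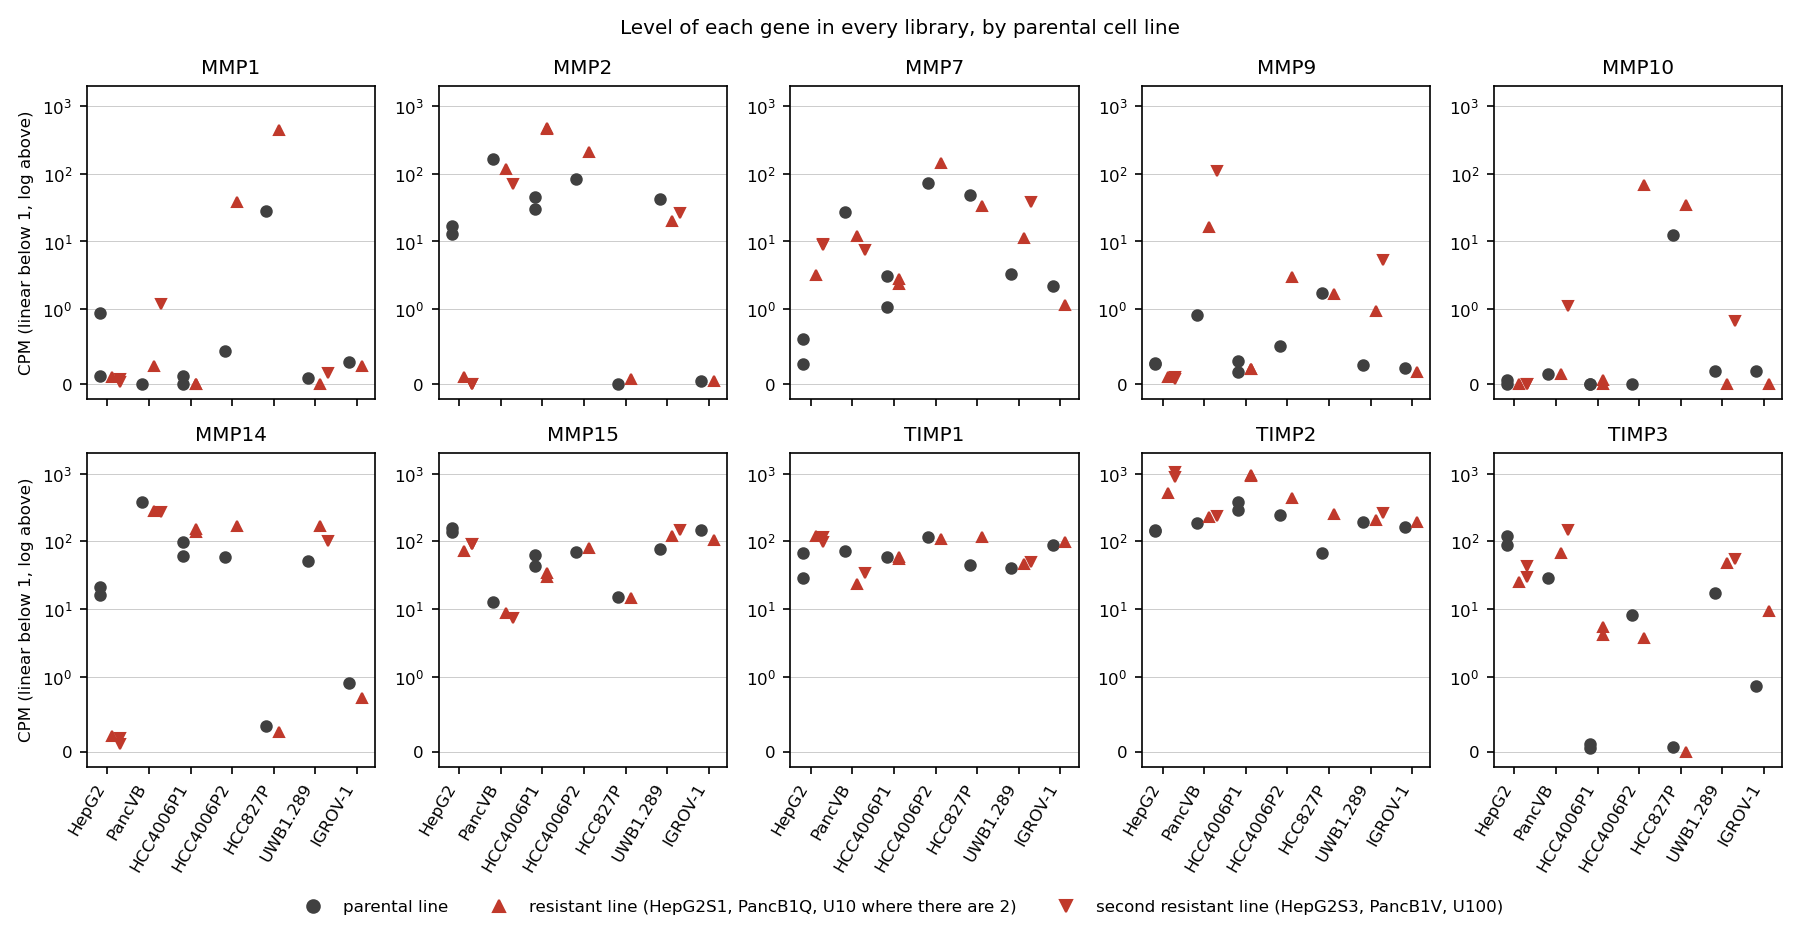
CPM of each of the 10 genes (y axis, linear below 1 CPM and logarithmic above) in every library, grouped by the 7 parental lines (x axis), with circles for parental and triangles for resistant lines. TIMP2 stood at 66.6 CPM or more in every line, whereas MMP1, MMP9 and MMP10 were near 0 in most lines and high in a few.

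Comparisons between genes need a value per length, and CPM per kilobase of exon was used. On that scale the highest of the 10 genes was TIMP2 in 6 lines, TIMP1 in 5, MMP14 in 4, and MMP15 (HepG2) and MMP1 (HCC827GR) in 1 line each. TIMP2 reached 157 CPM per kilobase in HepG2S3 and MMP1 161 CPM per kilobase in HCC827GR. The order takes all libraries to come from the stranded kit that covers whole transcripts, as every label states.

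MMP14, the membrane enzyme that works with TIMP2 on MMP2, lies on the plus strand of chromosome 14 (chr14:23305769-23318250, GRCh37). Its levels were 15.9 and 21.1 CPM in the HepG2 libraries, 0.203 CPM (2 counts) in HepG2S1, and 0.187 and 0.0979 CPM (6 and 3 counts) in HepG2S3. All 3 libraries of the sorafenib-resistant lines were thus far below both HepG2 libraries. The ratio of HepG2 to HepG2S3 was 129-fold, with a counting interval of 49.1 to 334, and that of HepG2 to HepG2S1 was 91.0-fold (23.1 to 358). In lung, MMP14 was at 98.0 and 60.9 CPM in HCC4006P1 and at 153 and 136 CPM in HCC4006ER, and HCC4006GR, at 167 CPM, was above HCC4006P2, at 58.9 CPM, beyond counting error. UWB1.289 had 51.3 CPM, U10 169 CPM and U100 103 CPM. The highest level of all was in PancVB, at 377 CPM, and its resistant lines had 283 and 275 CPM. HCC827P and HCC827GR (6 and 4 counts) and both IGROV-1 lines stayed under 1 CPM.

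MMP2, the gelatinase of that complex, lies on chromosome 16 (chr16:55423612-55540603, plus strand). It was at 12.9 and 17.2 CPM in HepG2, at 0.102 CPM (1 count) in HepG2S1 and without a count in both HepG2S3 libraries. With 3 counts per library as the floor, its level was at least 157-fold lower in HepG2S3. The ratio of HepG2 to HepG2S1 was 149-fold with a counting interval of 24.1 to 915. The opposite change was seen in lung, where the HCC4006P1 libraries had 45.5 and 30.0 CPM and the HCC4006ER libraries 483 and 457 CPM, a ratio of 12.5-fold. HCC4006GR had 210.0 CPM against 83.3 CPM in HCC4006P2. In pancreas and ovary MMP2 was lower in the resistant lines beyond counting error, with 164 CPM in PancVB, 120.3 CPM in PancB1Q and 71.2 CPM in PancB1V, and with 42.9 CPM in UWB1.289, 20.0 CPM in U10 and 26.5 CPM in U100. HCC827P, HCC827GR and both IGROV-1 lines had at most 1 count.

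Across the 17 lines MMP2 and MMP14 followed each other, with a Pearson correlation of log2(CPM + 1) of 0.946. TGFB1I1, a focal adhesion adaptor gene, was the gene most like each of them among 14756 genes (r = 0.959 with MMP2 and 0.978 with MMP14). The correlation of MMP2 and MMP14 was 0.932 over the 14 lines without the HepG2 family and 0.962 over the 15 lines without HCC4006P1 and HCC4006ER, alternatives chosen after seeing the data. These lines share parental origins and depths, so the values are descriptions. U10 and U100 were an exception to the common direction, since MMP14 was higher and MMP2 lower than in UWB1.289.

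TIMP2 lies on the minus strand of chromosome 17 (chr17:76849059-76921469) and shares its strand and part of its span with CEP295NL, so reads of the shared part are uncertain. Its CPM was 142 and 148 in HepG2, 526 in HepG2S1, and 1055 and 891 in HepG2S3. HCC4006P1 had 385 and 292 CPM and HCC4006ER 941 and 957 CPM. The resistant libraries did not overlap the parental ones in either of these families, but the share of all genes without overlap was not computed. HCC827GR had 255 CPM against 66.6 CPM in HCC827P, and HCC4006GR 434 CPM against 245 CPM in HCC4006P2. The other changes were small, from 186 CPM in PancVB to 227 and 235 CPM in PancB1Q and PancB1V, from 161 to 192 CPM in IGROV-1/CDDP, and from 196 CPM in UWB1.289 to 262 CPM in U100 and 206 CPM in U10. That of U10, a log2 difference of 0.07, was within counting error.

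TIMP3, an inhibitor that stays bound to the matrix, lies on chromosome 22 (chr22:33197691-33259028, plus strand) and overlaps SYN3 on the other strand. It was at 119.6 and 87.2 CPM in HepG2, at 24.7 CPM in HepG2S1 and at 43.1 and 30.0 CPM in HepG2S3. In HCC4006P1 it had 2 and 1 counts, and in HCC4006ER 5.36 and 4.16 CPM, a ratio of 60.2-fold with a counting interval of 11.4 to 304. IGROV-1/CDDP had 9.41 CPM against 0.873 CPM, a ratio of 10.8-fold. PancB1Q and PancB1V had 68.5 and 146 CPM against 29.1 CPM in PancVB, and U10 and U100 had 47.9 and 54.9 CPM against 17.2 CPM in UWB1.289. HCC4006GR was lower than HCC4006P2, at 3.71 against 8.08 CPM, and HCC827P and HCC827GR had 1 and 0 counts.

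TIMP1, a secreted inhibitor and the gene of the 10 with the smallest ratio of highest to lowest line, lies on chromosome X (chrX:47441807-47446188, plus strand) and overlaps SYN1 on the other strand. The HepG2 libraries had 28.9 and 66.3 CPM, which differ by more than counting error, HepG2S1 had 119 CPM and HepG2S3 116 and 97.5 CPM. HCC827GR had 117 CPM against 44.9 CPM in HCC827P. In pancreas TIMP1 was lower in the resistant lines, at 23.5 and 34.2 CPM against 71.6 CPM in PancVB. HCC4006P1 replicate 2 had 59.7 CPM and the HCC4006ER libraries 55.6 and 58.7 CPM, and HCC4006P2 and HCC4006GR had 115 and 108 CPM, both within counting error.

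MMP15, the other membrane enzyme, lies on chromosome 16 (chr16:58059658-58080805, plus strand). Of its differences in the 10 pairs, 1 was past 2-fold. It ranged from 7.45 CPM in PancB1V to 160.5 CPM in a HepG2 library, and the largest log2 difference in size was -1.04, in HepG2S1 (72.1 CPM). It was 90.8 and 91.3 CPM in HepG2S3 against 160.5 and 137 CPM in HepG2, and 34.2 and 30.2 CPM in HCC4006ER against 64.0 and 43.8 CPM in HCC4006P1. U10 and U100 were higher than UWB1.289, with 119 and 149 CPM against 76.6 CPM.

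**Figure D2:**
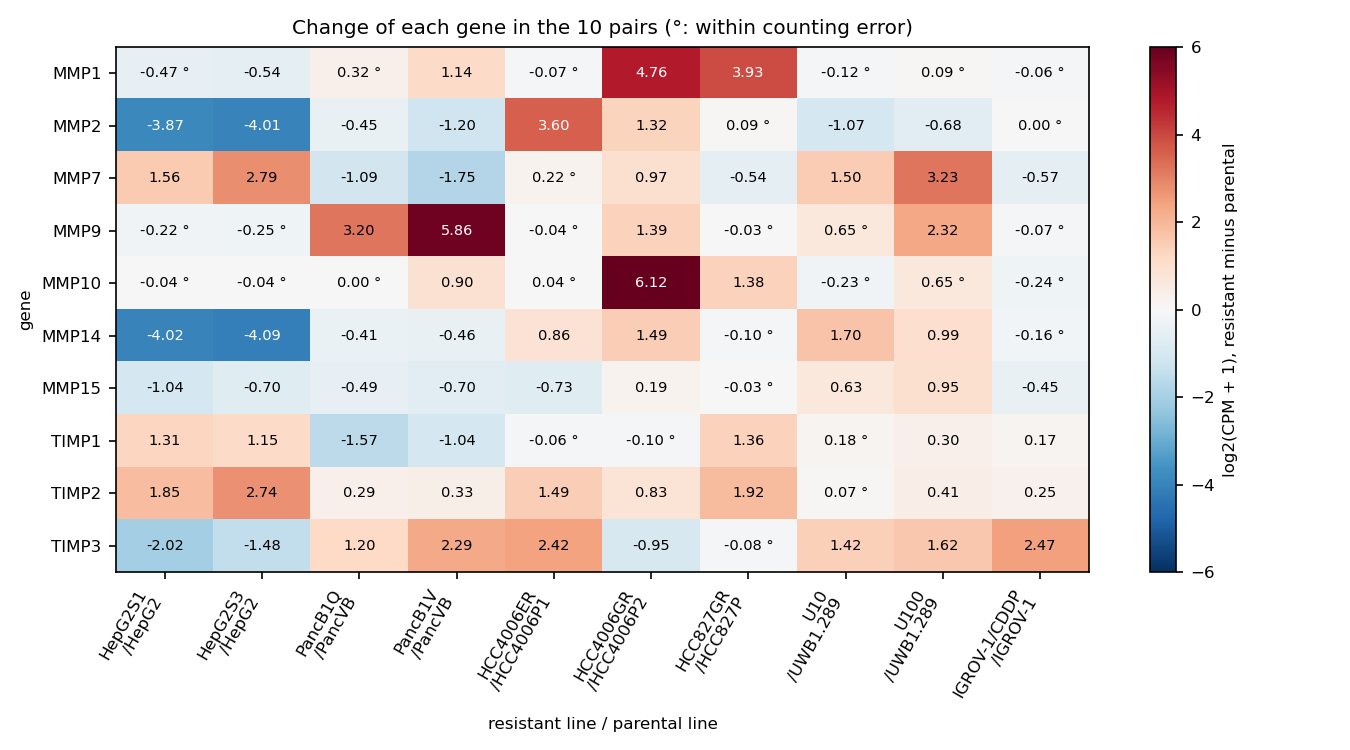
Difference of log2(CPM + 1) between resistant and parental line (colour and number) for the 10 genes (rows) in the 10 pairs (columns), with a ring mark for values within counting error. TIMP2 is above 0 in each column, and MMP2 ranges from -4.01 in HepG2S3 to 3.60 in HCC4006ER.

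The secreted MMP1, MMP10 and MMP7 lie in a cluster of metalloproteinase genes on chromosome 11, all on the minus strand, at chr11:102660132-102668891, chr11:102641233-102651359 and chr11:102391239-102401481. MMP1 and MMP10 overlap the antisense WTAPP1, and reads of the pairs cannot be told apart without the strand setting of the counting. MMP1 had 27.9 CPM in HCC827P and 440.4 CPM in HCC827GR, a ratio of 15.8-fold, and 0.441 CPM (6 counts) in HCC4006P2 against 38.1 CPM in HCC4006GR, a ratio of 86.3-fold with a counting interval of 36.5 to 204. MMP10 had no count in HCC4006P2 and 68.8 CPM in HCC4006GR, at least 312-fold higher against a floor of 3 counts per library, and 12.6 against 34.4 CPM in HCC827P and HCC827GR. Both gefitinib-resistant lines were thus higher for both genes. HCC4006ER had at most 1 count of either gene in each library, and all other lines but PancB1V were under 1 CPM for both. PancB1V had 1.21 CPM of MMP1 and 1.13 CPM of MMP10.

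MMP7 had another pattern. It was at 0.273 and 0.603 CPM in HepG2, 3.25 CPM in HepG2S1 and 8.87 and 9.07 CPM in HepG2S3, and at 3.27 CPM in UWB1.289, 11.1 CPM in U10 and 39.1 CPM in U100. Lower values were found in PancB1Q and PancB1V, with 12.3 and 7.37 CPM against 27.2 CPM, in HCC827GR, with 33.6 against 49.3 CPM, and in IGROV-1/CDDP, with 1.15 against 2.18 CPM. HCC4006GR had the highest level, 146 CPM against 73.9 CPM in HCC4006P2. The 4 libraries of HCC4006P1 and HCC4006ER overlapped, with 3.05 and 1.08 CPM against 2.78 and 2.36 CPM.

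The other MMP genes matched in this cluster were MMP20, MMP27, MMP8, MMP3 and MMP13. MMP20, MMP27 and MMP8 were under 1 CPM in both lines of every pair. MMP13, a collagenase, had 54.8 CPM in HCC4006GR against 3.16 CPM in HCC4006P2, and 12.1 CPM in HCC827GR against 2.88 CPM in HCC827P. It was also higher in HCC4006ER, at 4.48 against 1.32 CPM, and in PancB1V, at 3.18 against 0.276 CPM. In the remaining pairs MMP13 was under 1 CPM in both lines. MMP3, a stromelysin next to MMP1, had no count in HCC4006P2 and 3.77 CPM in HCC4006GR, and it was at 9.23 CPM in HepG2 but at 0 and 0.0319 CPM in HepG2S1 and HepG2S3.

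**Figure D3:**
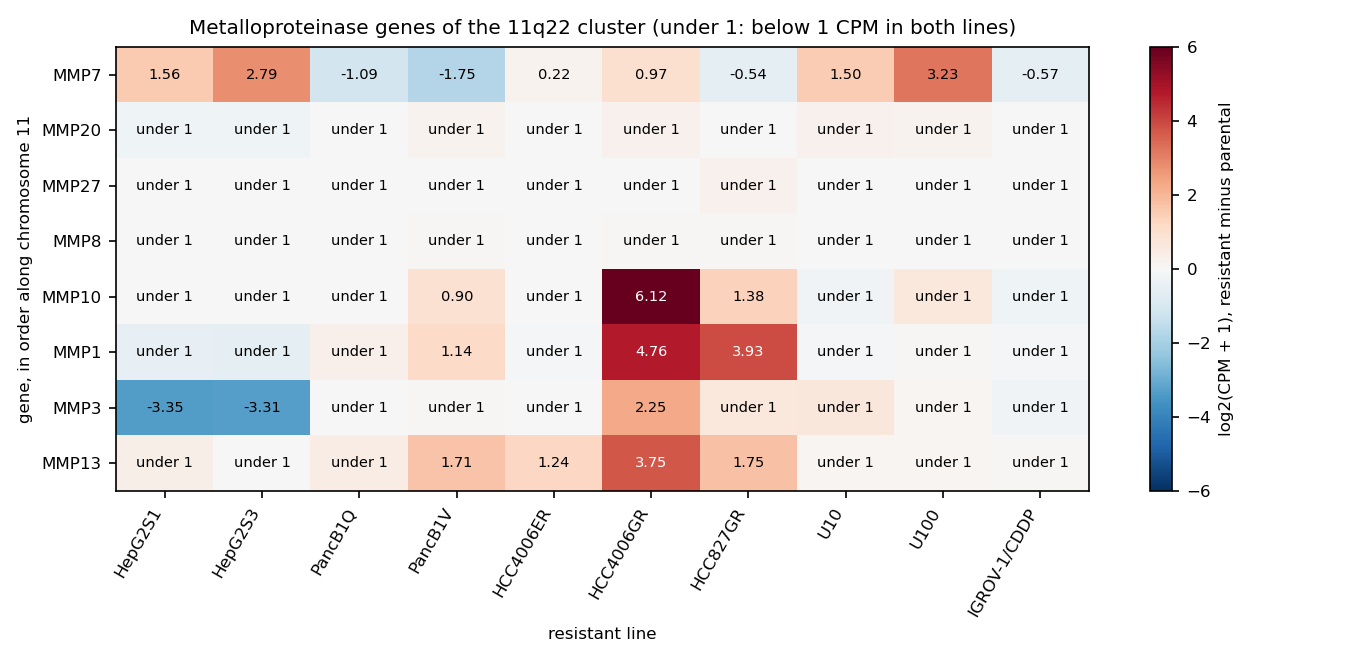
Difference of log2(CPM + 1) between resistant and parental line (colour and number) for the 8 metalloproteinase genes of the chromosome 11 cluster that were matched (rows, in order of position) in the 10 pairs (columns). MMP10, MMP1, MMP3 and MMP13 are all above 2 in HCC4006GR, and MMP7 is highest in U100 at 3.23.

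MMP9, the other gelatinase, lies on chromosome 20 (chr20:44637547-44645200, plus strand) and overlaps SLC12A5-AS1 on the other strand. No parental line reached 2 CPM. PancVB had 0.921 CPM (20 counts), PancB1Q 16.6 CPM and PancB1V 110.4 CPM, ratios of 18.0-fold (counting interval 10.7 to 30.5) and 120.0-fold (74.8 to 192) to PancVB. In ovary, UWB1.289 had 0.258 CPM (3 counts), U10 0.975 CPM and U100 5.26 CPM, and the ratio of U100 to UWB1.289 was 20.4-fold with a counting interval of 5.48 to 75.9. HCC4006GR had 2.98 CPM against 0.514 CPM. The 7 lines of the HepG2, HCC4006P1 and IGROV-1 families were all below 0.31 CPM. Within both families with a pair of resistant lines from pancreas and ovary, MMP9 was thus unequal, and PancB1V and U100 had the higher level.

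Of the 100 differences of a gene in a pair, 70 were beyond counting error and 43 were at or past 2-fold on log2(CPM + 1), of which 30 were higher and 13 lower in the resistant line. In 24 of the 100 differences the gene was under 1 CPM in both lines. The count at or past 2-fold was 30 without the 2 HepG2 pairs and 40 without the HCC4006ER pair. Pairs that share a parental line share its libraries, so each pair was read by itself.

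Counts past 2-fold are given among those of the 10 genes with at least 1 CPM in a line of the pair. The share over all such genes stands in brackets. Past 2-fold were 7 of 7 in HepG2S1 (43.9% of genes) and 6 of 7 in HepG2S3 (45.0% of genes). In both lines MMP2, MMP14 and TIMP3 were lower and MMP7, TIMP1 and TIMP2 higher. The median of all genes was itself 0.25 and 0.28 above 0 in these pairs, and with library sizes scaled by TMM the TIMP1 differences were 0.95 and 0.87 and no longer past 2-fold. Without HepG2 replicate 1 they were 0.84 and 0.68, and MMP15, lower past 2-fold in HepG2S1 only, was at -0.92. PancB1Q had 4 of 8 genes past 2-fold (15.5% of genes) and PancB1V 6 of 10 (16.1%), with MMP9 and TIMP3 higher and MMP7 and TIMP1 lower in both. With TMM sizes MMP7 in PancB1Q, at -0.89, and TIMP1 in PancB1V, at -0.96, fell short of 2-fold.

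Counted in the same way, HCC4006ER had 3 of 7 genes past 2-fold (23.5% of genes), MMP2, TIMP2 and TIMP3, all higher. With HCC4006P1 replicate 2 alone, MMP14 was a further one, at a log2 difference of 1.23. HCC4006GR had 5 of 10 (15.2%), MMP1, MMP2, MMP9, MMP10 and MMP14, and HCC827GR had 4 of 7 (18.3%), MMP1, MMP10, TIMP1 and TIMP2, again all higher. U10 had 4 of 7 (11.4%), with MMP7, MMP14 and TIMP3 higher and MMP2 lower. U100 had 3 of 8 (8.16%), MMP7, MMP9 and TIMP3, and IGROV-1/CDDP had 1 of 5 (12.8%), TIMP3. The 10 genes were chosen with results of these data known, so these counts describe them and test nothing.

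HepG2S3 was compared with HepG2 by the quasi-likelihood test of edgeR, with 2 libraries on each side. Of 7 genes that passed the filter on low counts, 2 rose and 4 fell (adjusted p under 0.05), where 63.5% of 16929 genes were called. MMP1, MMP9 and MMP10 did not pass the filter. MMP2 and MMP14 passed it through HepG2 only and MMP7 through HepG2S3 only, so the count describes the genes and supports nothing. TIMP2 rose by a log2 fold change of 2.43 ± 0.16 (SE, adjusted p = 0.000177). MMP7 was called higher as well, but HepG2 had only 10 and 21 counts of it. Its ratio of HepG2S3 to HepG2, 20.5-fold with a counting interval of 11.2 to 37.2, describes it better. TIMP3 fell by 1.82 ± 0.26 (adjusted p = 0.00239) and MMP15 by 1.03 ± 0.14 (adjusted p = 0.00209). MMP2 and MMP14 were called lower as well, but with 0 counts of MMP2 and 6 and 3 of MMP14 in HepG2S3 their fitted values rest on almost no counts, and the ratios with counting intervals given above describe them better. TIMP1 was not called, at 0.86 ± 0.39 (adjusted p = 0.106). Its value turned on the HepG2 libraries: without HepG2 replicate 1 it was 0.38 (adjusted p = 0.000984) and without HepG2 replicate 2 it was 1.55 (adjusted p = 4.4e-38), and in these fits the lone library is assumed to vary like the HepG2S3 pair. The median log2 fold change of the 7 genes was -1.03, against -0.01 over all genes. MMP2, MMP14 and MMP7 are among them, so this median too only describes the genes. With library totals in place of TMM all log2 fold changes moved up by a median of 0.31, and the calls over all genes went from 5308 higher and 5436 lower to 6761 higher and 4304 lower.

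**Figure D4:**
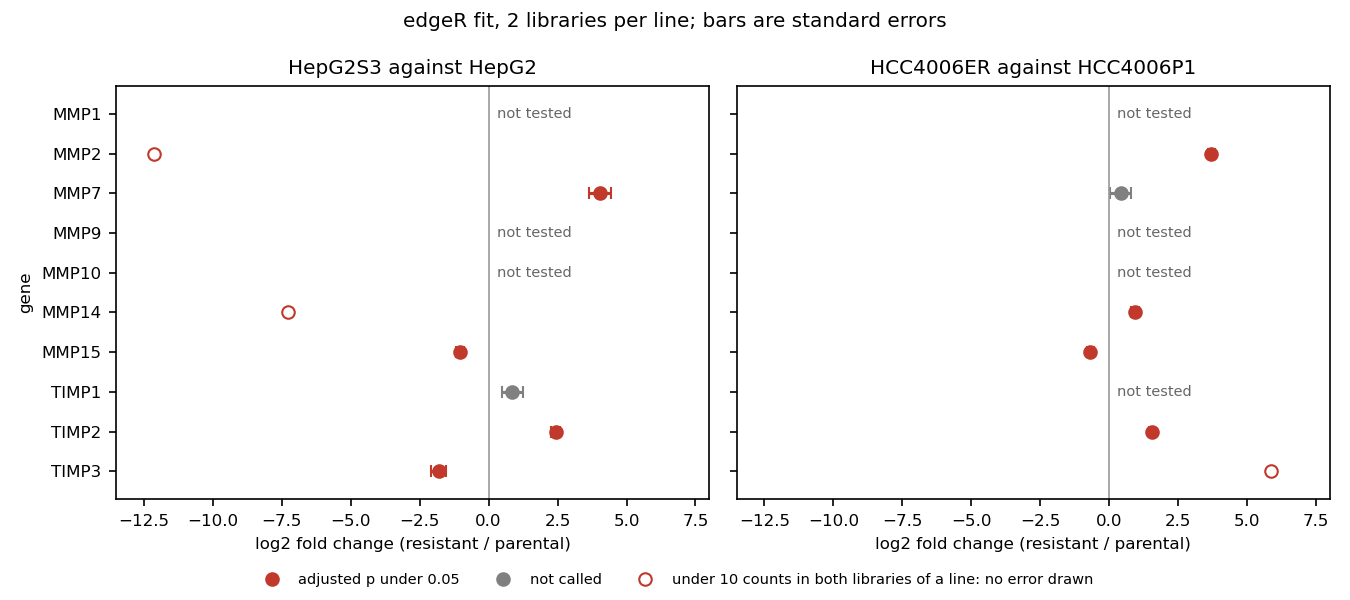
Log2 fold change (x axis) with its standard error (bars) from the edgeR fits of HepG2S3 against HepG2 and HCC4006ER against HCC4006P1, 2 libraries per line, for each gene that was tested (y axis). Open points, without an error bar, are genes with under 10 counts in both libraries of a line (MMP2 and MMP14 in HepG2S3, TIMP3 in HCC4006P1), and TIMP2 is above 0 in both comparisons. In HepG2S3 against HepG2, MMP7 passed the filter on low counts through HepG2S3 only, so its point is read for direction alone.

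HCC4006ER was compared with HCC4006P1 by the same test, without the stretch lacking in replicate 1 and without the 8415 genes not placed on GRCh37. Of 6 genes tested 4 rose and 1 fell, where 49.0% of 12791 genes were called. MMP2 rose by a log2 fold change of 3.71 ± 0.14 (adjusted p = 1.1e-05), TIMP2 by 1.55 ± 0.11 (adjusted p = 0.000107) and MMP14 by 0.94 ± 0.15 (adjusted p = 0.00274). TIMP3 was called higher as well, but it passed the filter through HCC4006ER only and had 2 and 1 counts in HCC4006P1, so its ratio with the counting interval given above describes it better. MMP15 fell by 0.68 ± 0.14 (adjusted p = 0.00743), but was not called without HCC4006ER replicate 2 (-0.61, adjusted p = 0.116). MMP7 was not called, at 0.42 ± 0.39 (adjusted p = 0.41). Without HCC4006P1 replicate 1 it was 1.11 (adjusted p = 0.00639), and without HCC4006P1 replicate 2 it was -0.03. The count of 6265 called genes went down to 4047 without HCC4006ER replicate 1. The median of the 6 genes was 1.24, against 0.01 over all genes. TIMP3 is among them, so this median and the count of genes called describe the genes and support nothing. TIMP1 could be tested only as 1 library against 2, with HCC4006P1 replicate 1 left out, and was at -0.24 ± 0.12 (adjusted p = 0.0654).

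The changes of the 2 comparisons were also set against each other in 1 fit of 8 libraries, an alternative chosen after seeing the data. The change differed (adjusted p under 0.05) for 5 of the 6 genes tested, where it differed for 55.9% of 14479 genes. For MMP2, MMP14 and TIMP3, lower in HepG2S3 and higher in HCC4006ER, 1 of the 4 lines had under 10 counts per library, so only the direction is read. TIMP2 rose in both and by more in HepG2S3. The 4 liver markers summed to 29327 CPM in HepG2 and 26.3 CPM in HepG2S3, but to at most 0.179 CPM in HCC4006P1 and HCC4006ER, and their part in the difference was not tested.

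Over the 7 parental lines, counts were summed per parental line and status, and edgeR with the parental line as a block called 0.0% of 15847 genes (0 genes) at an adjusted p under 0.05, and 720 genes (4.54%) at an unadjusted p under 0.05. DESeq2 called 99 genes, none of them among the 8 of these 10 genes that were tested. TIMP2 was the one of the 8 with an unadjusted p under 0.05, at a log2 fold change of 1.08 ± 0.30 (adjusted p = 0.985). Its summed profile was higher in the resistant lines of 7 of 7 parental lines, by 0.25 to 2.65 on log2(CPM + 1), and 1.33% of genes were higher in all 7. HCC4006P1 and HCC4006P2 are labelled as stocks of the same line, so the 7 are not all independent. With these stocks summed, edgeR again called 0 genes. The fitted value of TIMP2 was 0.88 without HepG2, whose profile had the difference of 2.65, and 1.00 without HCC4006P1. TIMP3 was at 1.35 ± 1.00 (adjusted p = 0.985), MMP14 at 0.02 ± 0.96 and MMP2 at -0.10 ± 1.42 (adjusted p = 0.999 for both). The standard errors of MMP2, MMP14 and TIMP3 were over 3 times that of TIMP2, and their differences ran both ways between parental lines. Without HepG2, TIMP3 was at 1.99, MMP2 at 0.80 and MMP14 at 0.65, and without HCC4006P1 they were at 0.72, -0.94 and -0.25.

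**Figure D5:**
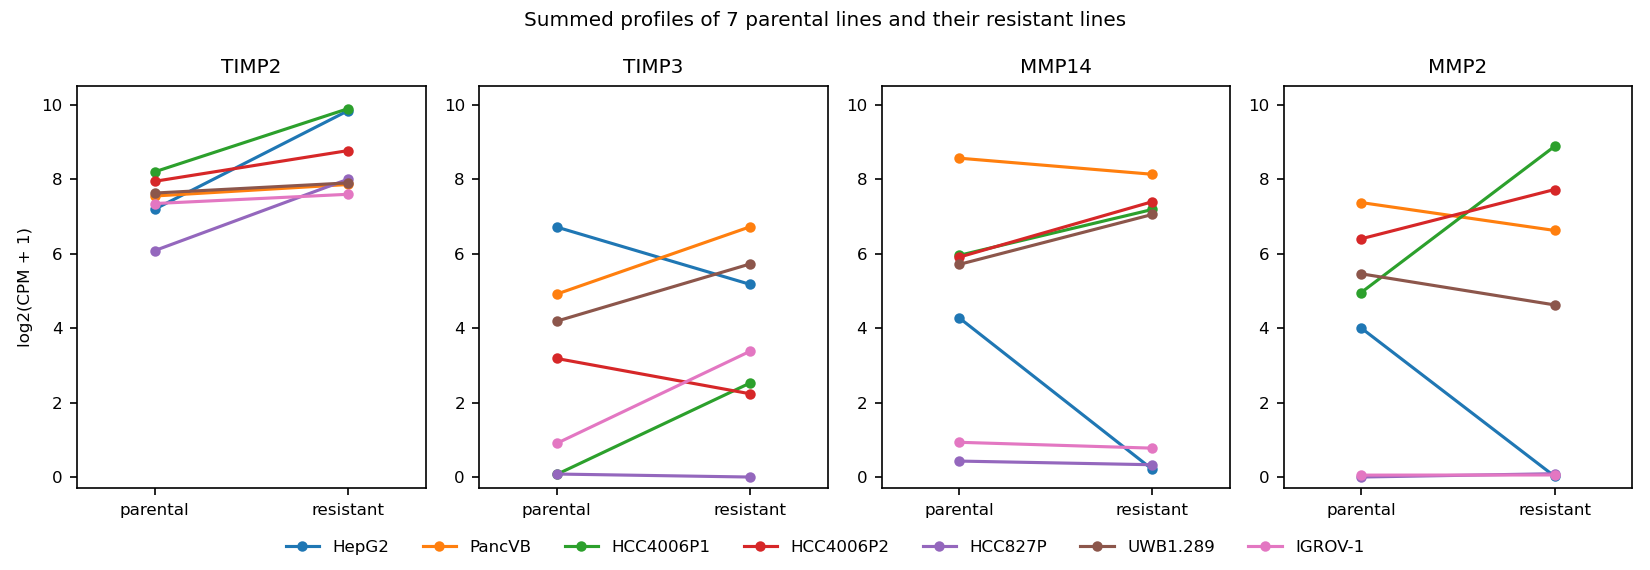
Level on log2(CPM + 1) (y axis) of TIMP2, TIMP3, MMP14 and MMP2 in the summed profile of each of the 7 parental lines and of its resistant lines, joined by a line. All 7 lines of TIMP2 run upward, by 0.25 to 2.65, and those of the other genes run both ways.

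Other genes of the system were described from 5 lists. Of all genes tested, 63.5% were called in HepG2S3 against HepG2 and 49.0% in HCC4006ER against HCC4006P1, so the list counts only describe. Of the 14 other MMP genes in the files, 6 were tested in HepG2S3 against HepG2, of which MMP24 rose (3.83 ± 0.30, adjusted p = 0.000326) and MMP3, MMP11 and MMP17 fell, MMP11 from 16.7 to 0.0937 CPM. In HCC4006ER 4 of 6 tested rose, among them the collagenase MMP13 (1.84 ± 0.28), MMP11 (1.73 ± 0.31) and MMP19, which had 0.105 CPM in HCC4006P1 and 1.20 CPM in HCC4006ER, and none fell. In HepG2S3 against HepG2, MMP3 and MMP11 passed the filter through HepG2 only. MMP19 passed it through HCC4006ER only, so these calls and counts describe the genes and support nothing. Of the 4 other inhibitors 3 were tested in HepG2S3. A2M, a broad protease inhibitor of blood made by liver cells, fell from 5205 to 4.08 CPM, while RECK, a membrane-bound inhibitor, rose by 1.30 ± 0.19 (adjusted p = 0.00245) and TIMP4 by 3.03 ± 0.82 (adjusted p = 0.0227). A2M is itself a liver product and fell with the liver markers. TFPI2, a secreted inhibitor, differed at least 4-fold in 3 pairs. It had 232 CPM in HCC827GR against 26.7 CPM, 42.1 CPM in HCC4006GR against 8.82 CPM, and 1.25 CPM in HCC4006ER against 11.7 CPM in HCC4006P1 replicate 2, the one library of that line with this gene's part of the counts.

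Among 10 activation and cell surface partners, 3 rose and 4 fell in HepG2S3, and of 6 tested 1 rose and 4 fell in HCC4006ER. Of all genes tested, 63.5% and 49.0% were called. FURIN, a protease that activates MMP14 and MMP15 proforms, fell in both, by 4.09 ± 0.25 (adjusted p = 0.000164) and by 1.34 ± 0.15 (adjusted p = 0.00069). PCSK5, a related convertase, and PLG, the plasminogen gene, were called lower in HepG2S3. Both passed the filter on low counts through HepG2 only, so only their direction is read. PLAU, the urokinase gene, fell in HCC4006ER by 1.19 ± 0.12. PLAUR, the urokinase receptor, rose in HepG2S3 by 2.27 ± 0.44, and BSG, an inducer of MMPs, rose in both comparisons. CD44, a surface receptor that docks MMPs, was at 0.0703 CPM in HepG2 and 159.9 CPM in HepG2S3, and passed the filter there through HepG2S3 only. It fell in HCC4006ER (-3.86 ± 0.16, adjusted p = 1.3e-05). LCN2, which binds MMP9, was at 359 CPM in HCC4006GR against 20.9 CPM in HCC4006P2, at 0.127 CPM in HCC4006ER against 21.6 CPM in HCC4006P1 (replicate 2 alone), and higher in U10 and U100 than in UWB1.289.

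Of 10 ADAM and ADAMTS proteases that TIMPs can inhibit, 3 rose and 4 fell among 9 tested in HepG2S3, and 4 rose and 3 fell among 9 in HCC4006ER. The shares called over all genes were 63.5% and 49.0%. ADAMTS1, a matrix protease, rose by 4.49 ± 0.30 (adjusted p = 0.000211) and by 4.46 ± 0.28 (adjusted p = 6.1e-05), and was at 78.1 CPM in HCC827GR against 2.31 CPM in HCC827P. ADAMTS5, an aggrecanase without a count in HepG2 or HCC4006P1, was at 1.57 CPM in HepG2S3 and 117 CPM in HCC4006ER. It passed the filter through these resistant lines only. ADAM12 rose in HCC4006ER (2.25 ± 0.18). ADAM19 was lower in HepG2S3, from 23.9 to 0.0483 CPM, and passed the filter there through HepG2 only. ADAMTS4 fell in HepG2S3 as well, and ADAM19 was at 174 CPM in HCC4006GR against 14.0 CPM. ADAM10 fell in both, ADAM17 in HCC4006ER, and ADAM15 rose in HepG2S3 (1.99 ± 0.14) and fell in HCC4006ER by 1.23 ± 0.14.

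Of 11 AP-1 and ETS factors, 4 rose and 6 fell in HepG2S3, and 2 rose and 8 fell in HCC4006ER, where 63.5% and 49.0% of all genes were called. Their medians were -1.16 and -0.94, against medians of -0.01 and 0.01 over all genes. ETV4 fell by 4.46 ± 0.16 (adjusted p = 4.6e-05) and by 3.39 ± 0.17 (adjusted p = 2.4e-05), and ETV5 and FOSB fell in both. FOSL2 rose by 1.97 ± 0.33 and 1.47 ± 0.13 and ETS1 by 2.12 ± 0.70 and 1.04 ± 0.21, and ETS2 rose in HepG2S3. Over the 7 parental lines edgeR called 0 of 15847 genes, so none of the 5 lists could hold a called gene there.

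The genes most like each of the other 8 over the 17 lines, by Pearson correlation of log2(CPM + 1), were as follows. MMP1 and MMP10 were close to each other (r = 0.935), with OR2I1P (0.942) nearest to MMP1 and HMGN2P46 (0.962) nearest to MMP10. Nearest to MMP7 were SAMD9L (0.898) and FGD6 (0.845), to MMP9 XIRP2 (0.932) and PLK5 (0.912), and to MMP15 CBS (0.909) and MTA3 (0.887). For the inhibitors they were MPZL1 (0.874) and USP9X (0.869) with TIMP1, PRMT2 (0.904) and ROR2 (0.882) with TIMP2, and CNDP2 (0.916) and ROBO1 (0.889) with TIMP3. The correlations of all pairs named ranged from 0.845 to 0.978, from 0.829 to 0.971 without the HepG2 family and from 0.839 to 0.984 without HCC4006P1 and HCC4006ER. Values for genes near 0 in most lines, such as MMP1, MMP9 and MMP10, rest on the few lines where they are high.

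Neighbouring lines in the order of level often could not be told apart. Of the 16 neighbouring pairs in the order of 17 lines, counting intervals overlapped in 13 for MMP9, in 12 for MMP1 and MMP10, in 10 for TIMP1, in 9 for MMP7, in 8 for MMP14, MMP15 and TIMP2, and in 6 for MMP2 and TIMP3. Intervals are 95% Wilson intervals and cover counting error only. In bulk RNA, fewer cells that carry a transcript and less of it per cell cannot be told apart.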

How the data were processed

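RNA from 17 cell lines was sequenced in 21 libraries. The labels describe a stranded poly(A) protocol (KAPA) for every sample. The study's methods also name a protocol that reads 3′ ends, whose reads were mapped with STAR, whereas the processing notes of these samples name the mappers of the KAPA libraries. The authors mapped reads to hg19 and counted them per gene. The tools named in the submitters' processing notes are Bowtie, TopHat, SAMtools and HTSeq, and the strand setting is not given in the sources used here. The authors deposited whole-number counts per Ensembl gene without normalization. Of 53515 genes, 45100 were placed with GENCODE on GRCh37. Counts assigned to no gene, 28.0% to 42.8% of a library, were left out.

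Each library's counts were divided by its total on genes (CPM), replicates were averaged, and differences were taken on log2(CPM + 1), which understates changes of low genes. Intervals are 95% Wilson intervals of both shares, cover counting error only, and treat PCR copies as independent. The floor was 3 counts per library. Resistant lines were paired with parental lines as in the study.

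edgeR 4.0.16 (quasi-likelihood, TMM, filterByExpr, R 4.3.3) compared HepG2S3 with HepG2, HCC4006ER with HCC4006P1, and summed profiles of 7 parental lines with those of their resistant lines. Calls needed a Benjamini-Hochberg adjusted p under 0.05 over all genes tested, and standard errors were derived from the test statistic. Nothing states that the replicate libraries came from separate cultures, so p-values measure the spread between libraries, which may be technical. DESeq2 1.42.0, no filter, library totals, a replicate block and leaving out libraries or lines were alternatives. The tests were tested on simulated counts. Sequences came from RefSeq. Python 3.11.15 with scipy 1.17.1 and matplotlib 3.10.9 was used.

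The 10 genes, the lists and the alternatives were chosen with earlier results of these data known. Named besides the 10 genes were genes of the lists called in a test (at most the 3 with the largest change in each direction) or changed at least 4-fold in at least 3 of 10 pairs, and the 2 genes with the highest correlation to each of the 10. MMP20, MMP27, MMP8 and MMP13 were shown as neighbours of MMP1 and MMP10.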

Additional observations from a re-analysis of the deposited data

Results flagged for a closer look

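The change of 5 genes differed between the 2 replicated comparisons, by an interaction term in 1 edgeR fit of the 8 libraries that was chosen after seeing the data. The log2 fold change in HCC4006ER minus that in HepG2S3 was -0.91 ± 0.20 (SE, adjusted p = 0.00385) for TIMP2. For MMP7 it was -3.64, given with no error, since HepG2 had only 10 and 21 counts of it. The fitted differences of 15.54 for MMP2, 8.19 for MMP14 and 7.67 for TIMP3 are no measure of size and are given with no error. HepG2S3 had 0 counts of MMP2 and 6 and 3 of MMP14, and HCC4006P1 had 2 and 1 of TIMP3, so that these genes passed the filter on low counts through other lines. For MMP2, MMP14 and TIMP3 both libraries of HepG2S3 were below those of HepG2 and both of HCC4006ER above those of HCC4006P1. For TIMP2 the resistant libraries were above the parental ones in both families. The share of all genes whose libraries separate in this way was not computed, so the separation cannot be called particular to these genes. The 2 comparisons differ in tissue, drug and lineage markers at once, and these cannot be told apart. No group had the 4 or more libraries that a check for single outlying libraries needs.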

How the results depend on the processing

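Of the counts of called genes, 3 moved by more than 1.5 times. In HCC4006ER against HCC4006P1 the 6265 calls became 3417 with all genes kept and ranged from 4047 to 8370 with 1 library left out. Over the 7 parental lines edgeR called 0 and DESeq2 99. Leaving out 1 library of HepG2 or HepG2S3 gave 7341 to 13242 calls instead of 10744. The count of 43 differences past 2-fold was 40 to 53 under the alternatives for all 10 pairs. Directions reversed only for values that were not called. MMP7 in HCC4006ER was -0.026 without HCC4006P1 replicate 2 and 1.11 without replicate 1. MMP2 over the parental lines was 0.19 with DESeq2 and -0.94 to 0.80 with 1 line left out, positive without HepG2, PancVB (0.17) or UWB1.289 (0.25). MMP14 there was -0.022 with DESeq2, -0.031 with both HCC4006P1 libraries summed, -0.31 with the HCC4006 stocks summed and -0.33 to 0.65 with 1 line left out, negative without HCC4006P1 (-0.25), HCC4006P2 or UWB1.289 (-0.29). TIMP1 was -0.024 to 0.40, negative without HCC827P only. The cause was not tested. The replicate number is no established pairing: deviations of same-numbered libraries correlated at 0.02 in the HepG2 and 0.41 in the HCC4006 comparison, each with only 2 pairs. With the replicate block 10561 and 7787 genes were called, and TIMP1 in HepG2S3 was called as well (0.96, adjusted p = 0.0373), as it was with library totals (1.17, adjusted p = 0.044). MMP1, MMP9 and MMP10 did not pass the filter in the replicated comparisons, and 3 counts stood for 0.0819 to 0.305 CPM.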
